A study of Sparus aurata with 53 samples.

Results

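The first 6 h of darkness were followed in whole larvae of gilthead sea bream (Sparus aurata) by comparing larvae taken at zeitgeber time 12 h with larvae taken at 18 h. Members were chosen by the sampling time in the sample labels alone, which gave 5 larvae at 12 h and 6 at 18 h, 11 of the 53 arrays of the series. All larvae were 30 days post hatching, lived in equal spans of light and dark (12 h each) with free access to feed, and carried no genetic change or drug. Light came on at 0 h and went off at 12 h, and the clock time in the titles of the 12 h larvae (2050) lies shortly before the light went off, so these larvae stand for the end of the light phase. RNA of 1 larva was labelled with Cy3 and hybridised to each 1-colour Agilent array. The labels do not say which tank a larva came from, so p-values measure the spread between single larvae. RNA came from the whole body, and fewer cells of a type cannot be told apart from less RNA per cell. The study fed the larvae Artemia nauplii, and RNA of prey in the gut cannot be told apart from RNA of the larva.

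Daily rhythms in vertebrates are kept by a loop of transcription factors. BMAL1 and CLOCK switch on the period (per) and cryptochrome (cry) genes, whose products in turn block BMAL1 and CLOCK, while receptors of the ROR family act on the bmal1 gene. In fish, light also reaches the clocks of many tissues directly, and in zebrafish larvae the cell cycle is timed by the day, with DNA synthesis and mitosis gathered at certain hours.

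Levels are log2 intensities relative to the 75th percentile of the array, so a difference of 1 is a doubling, and levels of different probes are not compared. A probe was called when its Benjamini-Hochberg adjusted p in limma was under 0.05, and SE is the standard error of the fitted difference. Of 13940 probes, 247 were called between 12 h and 18 h (1.77%), of which 152 were higher at 18 h (1.09%) and 95 were lower (0.681%), while 1974 probes had an unadjusted p under 0.05. Larvae of the 2 times did not overlap for 278 probes (1.99%), 175 with all larvae of 18 h higher (1.26%) and 103 with all lower (0.739%), and 158 of the called probes were among these. The called rises had a median of 1.00 and reached 3.90, and the called falls had a median of -1.29 and reached -11.76. Only 277 of the clones have a gene name in the sources used here, and these were picked by the study from the same larvae, so their changes are not independent evidence. Of the named clones 34 were called, 19 higher and 15 lower at 18 h.

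**Figure D1:**
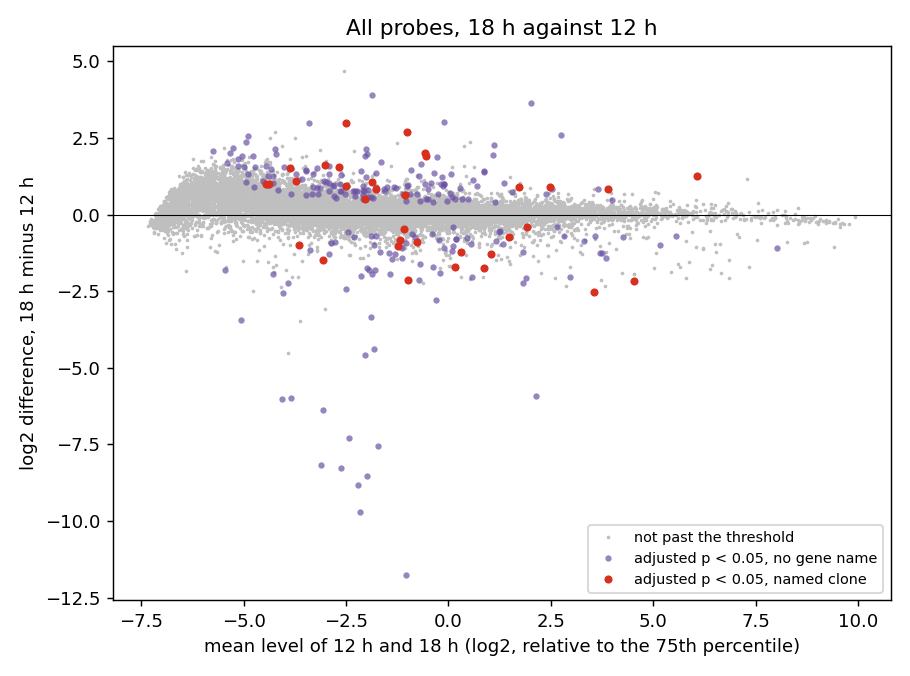
Log2 difference between 18 h and 12 h (y axis) against the mean log2 level of both times (x axis, relative to the 75th percentile of the array), 1 point for each of the 13940 probes. Called probes with a gene name are red, other called probes are purple, and a group of purple points lies below -4.

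The 75th percentile of the array intensity was 180 to 476 at 12 h and 171 to 416 at 18 h, and 73.8% to 86.6% of probes stood well above background at 12 h against 78.7% to 94.0% at 18 h. The median difference of all probes was 0.11, and it was 0.41 in the 3485 dimmest probes against 0.03 in the 3485 brightest, where 27 probes were called higher and 36 lower. The part of this shift in the calls of dim probes was not tested. The split between rises and falls depended on the scaling, with 61.5% of the calls rises here, against 48.9% after median centring, 51.1% after quantile normalization, 52.2% from median signals less background and 41.4% after a normexp background correction. A larva of each time lay on 4 of the slides. With the slide as a block, 622 probes were called, 246 of the 247 among them. Larva 6 of 18 h correlated least with its group. Rod PDE6 gamma, a photoreceptor gene, stood at -1.59 in this larva against 3.67 to 4.65 in the other 18 h larvae, and without it 261 probes were called. Leaving out larva 6 of 12 h gave 378 calls, 266 of them higher. Markers of eye, skin, gut, liver, muscle and inner ear were well above background in every larva, with 1 exception. Cone PDE6 gamma was so in 5 of 6 larvae of 18 h, and it stood at -4.91 in larva 6. None of the 10 markers was called, and of all probes 1.77% were. An unadjusted p under 0.05 was found for 6 of the 10, against 1974 of the 13940 probes. With the slide as a block 3 markers were called, cone PDE6 gamma (adjusted p = 0.0317), keratin type II (adjusted p = 0.00487) and the ileal bile acid cotransporter (adjusted p = 0.0378).

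The named clones that changed most were a mixed set of stress, cell cycle, transport and signalling genes. By a rule of size that asked for no overlap of larvae, 12 rises and 11 falls were named. Their values are given below by role.

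Genes of growth arrest and of the entry into DNA synthesis moved in both directions. Cyclin-dependent kinase inhibitor 1 (C2_1055), which holds cells before DNA synthesis, had levels of 5.40, 5.33, 5.65, 5.83 and 5.89 at 12 h. At 18 h its levels ran from 3.05 to 4.07 with a median of 3.35. Every larva of 18 h lay below every larva of 12 h, and the level fell by 2.18 (SE 0.26, adjusted p = 6.92e-08 by limma). Cyclin-E1 (C2_91393), the cyclin that drives cells into DNA synthesis, had levels of -4.48, -4.22, -4.60, -5.80 and -4.07 at 12 h, and 3 of these 5 larvae were well above background. At 18 h it lay between -3.57 and -2.73 with a median of -3.06, above all larvae of 12 h. It rose by 1.53 (SE 0.29, adjusted p = 0.000733 by limma), and by 0.20 with adjusted p = 0.957 after normexp with spots of bright background left out. Tob1 (C2_2559), which slows proliferation, was a bright probe with levels of 5.02, 5.45, 5.23, 5.77 and 5.69 at 12 h and of 6.07 to 7.40 at 18 h (median 6.68). It rose by 1.27 (SE 0.21, adjusted p = 6.64e-05 by limma) with no overlap. Myc-1-like (C3_lrc4088), a growth-promoting transcription factor, had levels of -3.26, -4.28, -3.16, -3.27 and -3.25 at 12 h and of -2.46 to -1.33 at 18 h (median -1.90). It rose by 1.56 (SE 0.30, adjusted p = 0.000722 by limma). The retinoblastoma gene rb1, which restrains the same step, was 0.51 higher (adjusted p = 0.0362 by limma) with overlapping larvae, and this call was lost without larva 3 or 6 of 12 h or larva 1, 2 or 3 of 18 h. It was also lost with median signals less background, quantile normalization, median centring, only the arrays compared and normexp without bright-background spots (0.16, adjusted p = 0.957).

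Of the 14 clones for chaperones, 1 was called, where 1.77% of all probes and 9.78% of the clones in all lists were. Alpha-crystallin B (C2_4364), a small heat shock protein of lens and muscle, had levels of -2.30, -1.82, -2.51, -2.70 and -2.53 at 12 h and of -0.50 to 0.73 at 18 h (median 0.43). Every larva of 18 h was higher than every larva of 12 h, and the level rose by 2.71 (SE 0.22, adjusted p = 1.39e-12 by limma), the smallest adjusted p of the named clones. Hyaluronan synthase 1 (C2_14211), which makes hyaluronan of the extracellular matrix, spread widely at 12 h, with levels of -4.36, -4.78, -3.17, -5.70 and -1.91, 4 of 5 well above background. Its levels at 18 h were -1.54 to -0.07 (median -1.11), and the rise was 2.98 (SE 0.43, adjusted p = 5.56e-06 by limma). Lysyl oxidase homolog 2 (C2_14996), an enzyme that cross-links collagen, rose by 0.83 (adjusted p = 0.00462). The caspase inhibitor XIAP (C2_5274) rose by 0.66 (adjusted p = 0.00221), while Bcl-2-like 14, of the family that controls cell death, fell by 0.89 (adjusted p = 0.0169) with overlapping larvae, a call lost without larva 1 or 3 of 12 h, without larva 3 of 18 h or with only the arrays compared.

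Transport and metabolism genes changed both ways. Monocarboxylate transporter 12-B (C2_29219), a carrier that moves creatine in mammals, had levels of -1.96, -1.43, -1.45, -1.57 and -1.18 at 12 h and of 0.18 to 0.66 at 18 h (median 0.35). It rose by 1.92 (SE 0.27, adjusted p = 2.94e-06 by limma). Uridine phosphorylase 2 (C2_552), which breaks down uridine, had levels of -1.75, -2.28, -1.70, -1.63 and -0.56 at 12 h and of -0.49 to 1.27 at 18 h (median 0.52). The highest larva of 12 h lay just under the lowest of 18 h, and the rise was 2.02 (SE 0.37, adjusted p = 0.000344 by limma). Large neutral amino acids transporter 4 (C2_14363) rose by 1.07 (adjusted p = 0.00637), and the scaffold protein NHE-RF4 (C2_50960) rose by 0.94 (adjusted p = 0.00462). Among carriers of the mitochondrial membrane, SLC25A36 (C2_47279), which carries pyrimidine nucleotides in mammals, went down. It had levels of 0.51, 0.47, 1.36, 1.49 and 1.25 at 12 h and of -1.46 to -0.24 at 18 h (median -0.64). It fell by 1.72 (SE 0.33, adjusted p = 0.000695 by limma), and kidney mitochondrial carrier protein 1 (C2_5889) fell by 1.02 (adjusted p = 0.00143).

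Uncoupling proteins let protons leak through the inner mitochondrial membrane. Ucp1 (C2_5902) had levels of 1.96, 2.03, 2.36, 1.91 and 1.88 at 12 h and of 2.79 to 3.19 at 18 h (median 2.91). All 18 h larvae were higher, and the rise was 0.89 (SE 0.20, adjusted p = 0.0066 by limma). Within the first scan batch alone, with 4 larvae of 12 h and 3 of 18 h, its call was lost. Ucp2 differed by -0.06 (adjusted p = 0.967) and ucp3 by 1.28 (adjusted p = 0.158), both with overlapping larvae.

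The other named falls had varied roles. For the list counts below, the share called was 1.77% of all probes and 9.78% of the clones in all lists. Deltex-1 (C2_54553), a ubiquitin ligase of the Notch pathway, had levels of 4.93, 4.66, 4.61, 4.77 and 5.09 at 12 h and of 1.72 to 3.12 at 18 h (median 2.29). The groups lay more than 1 log2 unit apart, and the fall was 2.53 (SE 0.22, adjusted p = 6.53e-12 by limma). Microsomal glutathione S-transferase 2 (C2_35678), a membrane enzyme that joins glutathione to other molecules and the 1 called clone of 7 in the oxidative stress list, had levels of 0.71, 0.04, -0.42, 0.11 and -0.07 at 12 h and of -2.70 to -0.78 at 18 h (median -2.19). It fell by 2.12 (SE 0.32, adjusted p = 1.76e-05 by limma). Nuclear receptor 0B2 (C2_16956), which represses bile acid synthesis in mammals, had levels of 1.92, 2.77, 1.53, 1.46 and 0.97 at 12 h and of -0.94 to 0.77 at 18 h (median 0.12). It fell by 1.75 (SE 0.46, adjusted p = 0.0279 by limma), a call that was lost without larva 1 or 2 of 12 h or larva 4 or 6 of 18 h. ZNRF2 (C2_4669), a ubiquitin ligase and the 1 called clone of 9 ubiquitin enzymes, had levels of 2.29, 1.43, 1.38, 1.88 and 1.52 at 12 h and of 0.08 to 0.63 at 18 h (median 0.42), and it fell by 1.30 (SE 0.23, adjusted p = 0.000213 by limma). Nuclear receptor coactivator 7 (C2_45763), a partner of hormone receptors, fell by 1.48 (adjusted p = 0.000236), and normexp with bright-background spots left out gave -0.61 with adjusted p = 0.0868. Calpain-8-like (C3_c55605), a calcium-dependent protease, fell by 1.23 (adjusted p = 0.00462), while MOSPD2 fell by 0.46 (adjusted p = 0.0104) and gametogenetin-binding 2 by 0.41 (adjusted p = 0.0083). Of the 23 clones, normexp with those spots left out also ended the calls of Myc-1-like, large neutral amino acids transporter 4, NHE-RF4, lysyl oxidase homolog 2 and MOSPD2. The first scan batch alone ended these 5 as well as ucp1, XIAP, nuclear receptor 0B2, calpain-8-like and gametogenetin-binding 2. A fit of only the arrays compared ended the calls of large neutral amino acids transporter 4, NHE-RF4, lysyl oxidase homolog 2 and XIAP. It also ended those of nuclear receptor 0B2, MOSPD2 and gametogenetin-binding 2. The call of MOSPD2 was lost without larva 1 of 12 h as well.

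**Figure D2:**
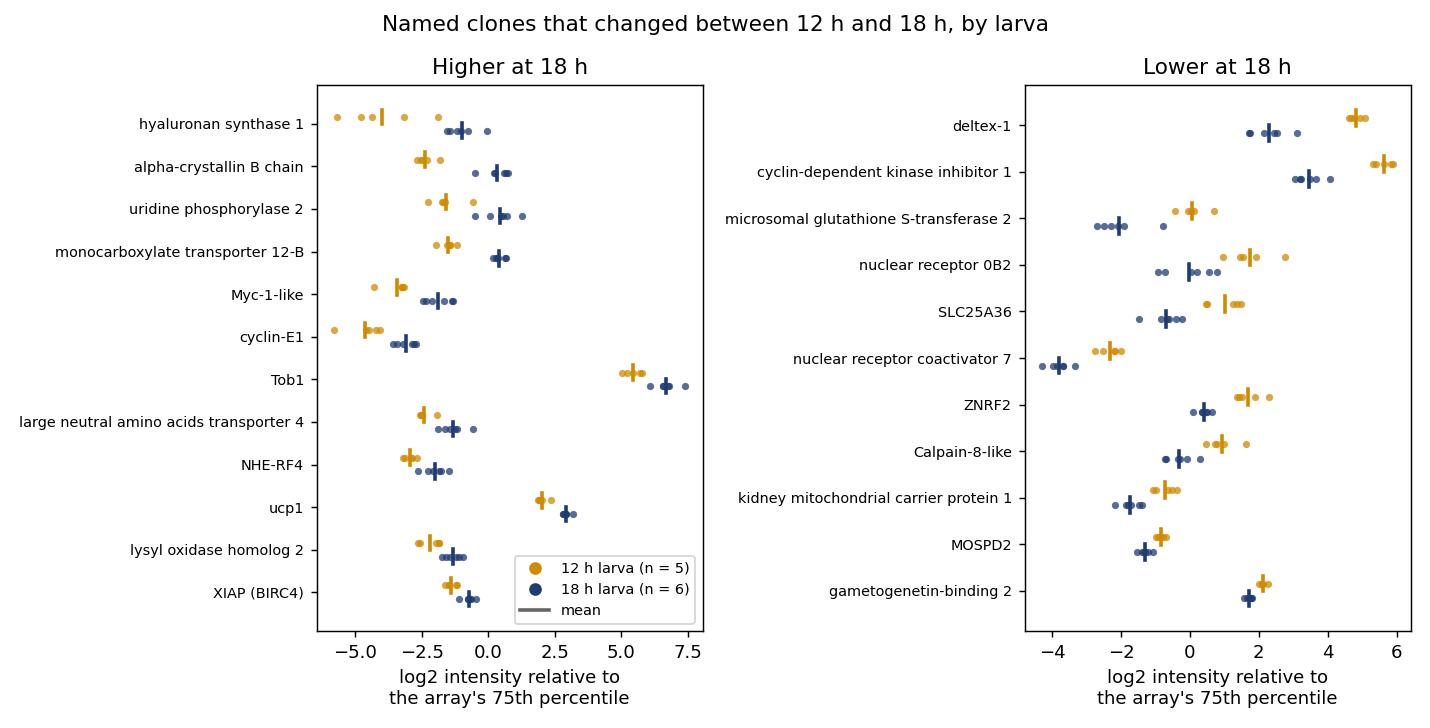
Log2 level relative to the 75th percentile of the array (x axis) of the 12 named rises and 11 named falls, 1 point per larva, orange for 12 h (n = 5) and blue for 18 h (n = 6), with a bar at each mean. The colours do not overlap for any clone, a condition of the choice, and deltex-1 and cyclin-dependent kinase inhibitor 1 show the widest gaps among the falls.

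Of the 10 clones of the core clock list, which adds ROR-gamma, nocturnin and cryptochrome DASH to the study's core clock genes, 1 was called. The share called was 1.77% of all probes and 9.78% of the clones in all lists. Per1 had levels of -3.35, -3.01, -3.83, -2.95 and -2.58 at 12 h and of -4.85 to -3.62 at 18 h (median -4.10). The lowest larva of 12 h lay within the range of 18 h, where 4 of 6 larvae were well above background. Per1 fell by 0.99 (SE 0.27, adjusted p = 0.0387 by limma), and the call was lost without larva 1, 2, 4 or 6 of 12 h or larva 3, 4 or 6 of 18 h. It was also lost with only the arrays compared, in the first scan batch alone and with normexp without bright-background spots. Bmal1 differed by -1.35 (adjusted p = 0.0848), clock by -1.28 (adjusted p = 0.0866) and ROR-gamma by -0.74 (adjusted p = 0.0759). With the slide as a block these 3 had adjusted p = 0.0095, 0.00101 and 0.000438. Per3 differed by 1.02 (adjusted p = 0.0615) and was not well above background in any larva of 12 h. Set against the detection limit of the 12 h arrays, its 18 h mean was at least 1.04-fold higher. Cry1 (-0.17), cry2 (0.28), cryptochrome DASH (0.07), and nocturnin (0.41) had adjusted p above 0.05. Per2 was well above background in no larva of 12 h and in 1 of 18 h, so no difference is given. By their means, per1, cry1, cry2 and cryptochrome DASH were highest at 3 h and lowest at 15 h, while clock was highest at 12 h and per3 and nocturnin were lowest then.

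Lists were drawn up for the cell cycle, protein turnover, metabolism and other functions. Of 184 clones in 17 lists, 18 were called (9.78%), against 1.77% of all probes. These clones come from those the study picked from the same larvae, so the higher share is no independent evidence. The list with most calls was that of membrane transporters, with 2 rises and 2 falls among 12 clones. G1/S genes had 2 rises and 1 fall among 11, and 10 of the 11 differences were above 0 (median 0.16, against 0.11 for all probes). This median was 0.06 to 0.14 under 4 other scalings. Metabolism genes had 2 rises among 16, uridine phosphorylase 2 and L-threonine 3-dehydrogenase (1.103, adjusted p = 0.0103 by limma). The latter call was lost with median signals less background, with quantile normalization, with only the arrays compared and with normexp without bright-background spots (0.12, adjusted p = 0.957). DNA replication had 1 among 15, replication factor C subunit 5 (1.00, adjusted p = 0.0399), a dim probe whose call was lost without larva 1 or 3 of 12 h or larva 1, 2, 4 or 5 of 18 h, and under each other scaling tried. All 14 proteasome clones lay above 0, between 0.08 and 0.40, with no call, and their median of 0.20 was 0.13 to 0.23 under 4 other scalings. The neuromuscular and growth factor list had 19 of 20 differences above 0 (median 0.31) and 1 call, Myc-1-like. Its median was 0.12 to 0.25 under the same 4 scalings. Clones of a list were measured in the same larvae, so counts above or below 0 are not counts of repeats. The study also grouped the proteasome and G2/M clones, and most neuromuscular clones, by their daily course in these larvae. Shared signs within these lists are therefore no independent evidence. The 17 G2/M clones had no call and a median of -0.21, and 13 of them lay below 0.

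**Figure D3:**
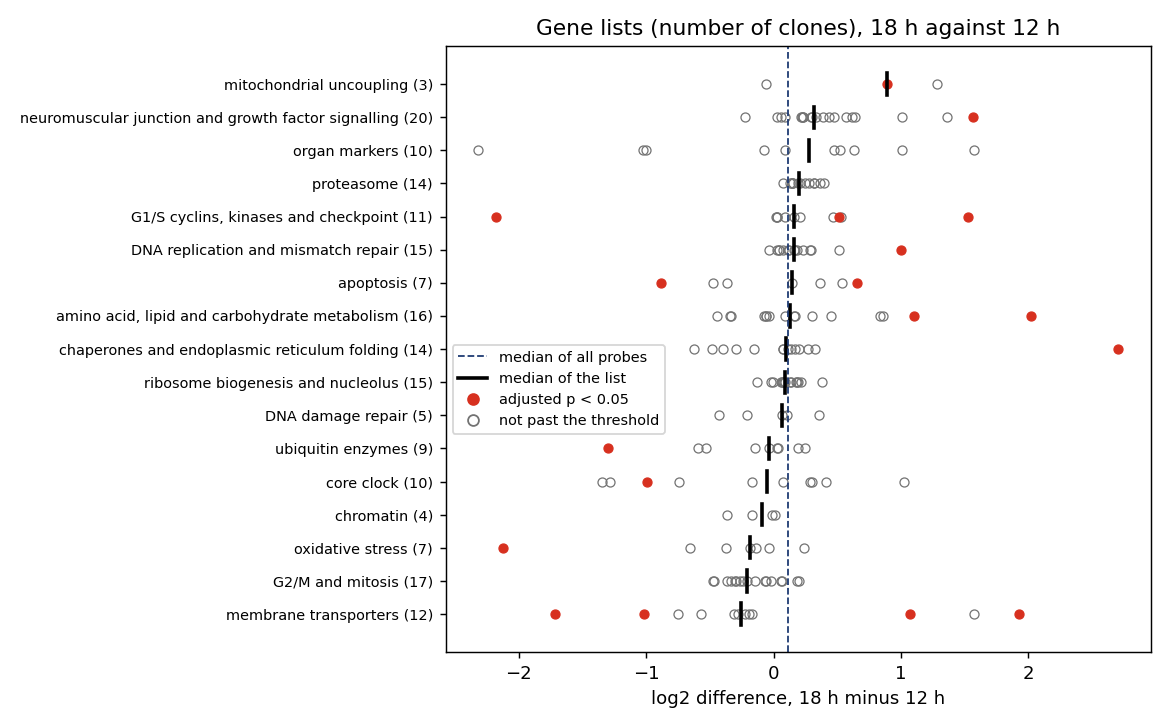
Log2 difference between 18 h and 12 h (x axis) of each clone of 17 gene lists (y axis, number of clones in parentheses), red where adjusted p was under 0.05. Black bars are list medians and the dashed line is the median of all probes, 0.11, and most lists lie close to it.

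The 6 h were also split at 15 h. Between 12 h and 15 h 57 probes were called (0.409%), and between 15 h and 18 h 104 were (0.746%). Both steps use the 15 h larvae, so their values are only set side by side. Of the 247 probes, 43 were called in the first step and 52 in the second, 4 of them in both. The other 156 were called in neither, so for most of the 247 the split does not show when the change came. By size alone, 133 of the 247 had the larger part of their change after 15 h. Deltex-1 fell by 1.87 by 15 h (adjusted p = 2.18e-07) and differed by -0.66 afterwards (adjusted p = 0.147). Cyclin-dependent kinase inhibitor 1 differed by -0.39 by 15 h (adjusted p = 0.931) and fell by 1.78 afterwards (adjusted p = 8.37e-06). Alpha-crystallin B differed by 0.36 by 15 h (adjusted p = 0.898) and rose by 2.34 afterwards (adjusted p = 8.47e-11). Cyclin-E1 rose by 1.32 by 15 h (adjusted p = 0.0156) and differed by 0.20 afterwards. Ucp1 differed by 0.15 and then rose by 0.74 (adjusted p = 0.0487).

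Most genes of mitosis had a higher mean at 15 h than at either 12 h or 18 h. Of the 17 G2/M clones, 15 were above 0 in the first step (median 0.54), with 1 call, and 16 were below 0 in the second (median -0.66), with 4 calls. All probes had medians of 0.03 and 0.08 in these steps, and 0.409% and 0.746% of them were called. Clones of a list were measured in the same larvae and are not repeats. The study also placed the G2/M clones in the same cluster by their daily course in these larvae. Their shared rise and fall is therefore no independent evidence. The mean centred level of the list ran over larvae from 0.08 to 0.83 at 12 h, 0.56 to 0.98 at 15 h and -0.41 to 0.51 at 18 h. CDC20, which starts chromosome separation, rose by 0.89 (adjusted p = 0.0363 by limma) and then fell by 0.82 (adjusted p = 0.0299). In the second step PRC1, a protein of the dividing spindle, fell by 1.01 (adjusted p = 0.0056), the kinase aurora A by 0.87 (adjusted p = 0.0303) and UBE2C, which marks cyclins for breakdown, by 0.85 (adjusted p = 0.0327). CDC20 and aurora A were singled out after their values were seen. The second step had 104 calls in all, 24 with only the arrays compared, 13 in scan batch 1 alone and 489 with the slide as a block. Step calls of single clones under these alternatives are not given here. Genes of ribosome biogenesis went the other way, with all 15 below 0 in the first step (median -0.35, no call) and all 15 above 0 in the second (median 0.48). Among these N-acetyltransferase 10 rose by 0.64 (adjusted p = 0.0299) and the nucleolar GTPase GNL3 by 0.80 (adjusted p = 0.0330). Several ribosome clones also share a cluster of daily course in the study, so their shared signs are no independent evidence either. The mean centred level of the ribosome list ran over larvae from -0.96 to 0.15 at 12 h, -1.01 to -0.14 at 15 h and -0.26 to -0.02 at 18 h. Larvae of 15 h thus overlapped with those of 12 h and of 18 h. In scan batch 1 the ribosome level was -0.24 to 0.15 at 12 h and -0.60 to -0.14 at 15 h. It was -0.26 to -0.02 at 18 h in that batch. In batches 2 and 3, larva 6 of 12 h stood at -0.96. Larvae of 15 h in these batches stood at -1.01 to -0.63, and those of 18 h at -0.22 to -0.07. The part of scan batch in these list levels was not tested.

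The largest falls were in probes without a gene name. A group of 14 probes, all with codes that begin with C3, fell by more than 4 log2 units, with differences of -4.37 to -11.76, and the next largest fall was -3.45. All were well above background in every 12 h larva, and 8 were in no larva of 18 h. C3_c29376 had levels of 4.96, 3.85, 6.47, 4.17 and 4.72 at 12 h and of -7.70 to -5.78 at 18 h (median -7.02), at least 1068-fold lower (adjusted p = 2.31e-06 by limma). C3_c57724 had levels of 3.15, 1.56, 4.34, 2.20 and 2.26 at 12 h and of -7.61 to -6.06 at 18 h (median -7.23), at least 243-fold lower (adjusted p = 2.93e-06). These bounds set the 12 h mean against the detection limit of the 18 h arrays. The median level of the 14 probes was -7.17 at 0 h. In the light it stood at 1.61 (3 h), 1.30 (6 h), 1.44 (9 h) and 0.83 (12 h), and in the dark at -6.81 (15 h), -6.57 (18 h), -6.33 (21 h) and -6.73 (24 h). One larva of 3 h stood at -6.09, low among its group, and the highest of 24 h at 0.73. The mean of C3_c29376 was -3.70 at 24 h against -6.80 at 21 h, and that of C3_c57724 was -4.16 against -6.87. Over all 95 falls, the mean centred level was 0.21 and 0.09 in larvae 5 and 6 of 24 h. In larvae 1 to 4 of 24 h it was -0.92 to -0.72. All 14 of the C3 probes that fell by more than 4 log2 units were called by 15 h. Whether they read RNA of the larva or of prey in its gut was not tested. The largest rises without a name were C2_93910, with levels of -4.50, -4.36, -5.20, -2.60 and -2.41 at 12 h and a median of -0.03 at 18 h (3.90, adjusted p = 3.80e-07), and C2_21331, from 1.20, -0.22, -0.82, -0.03 and 0.81 to a median of 3.67 (3.66, adjusted p = 2.68e-12).

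Over the whole day the called probes followed a broad course. Those higher at 18 h had their lowest mean at 12 h in 84 of 152 cases, and their highest at 18 h in 45 and at 21 h in 47. Those lower at 18 h had their highest mean at 12 h in 57 of 95 cases and their lowest at 18 h in 39. The mean of the first set fell between 0 h (0.40) and 12 h (-0.79) and reached 0.65 by 21 h. That of the second set went from -0.75 (0 h) through 0.57 (3 h) to 1.17 (12 h). The second mean includes the 14 C3 probes that fell by more than 4 log2 units. Their median level went from -7.17 at 0 h to 1.61 at 3 h, and from 0.83 at 12 h to -6.81 at 15 h. The course of the 95 falls is therefore largely weighted by these probes, and a course without them is not given. The values at 12 h and 18 h follow from the choice of probes.

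**Figure D4:**
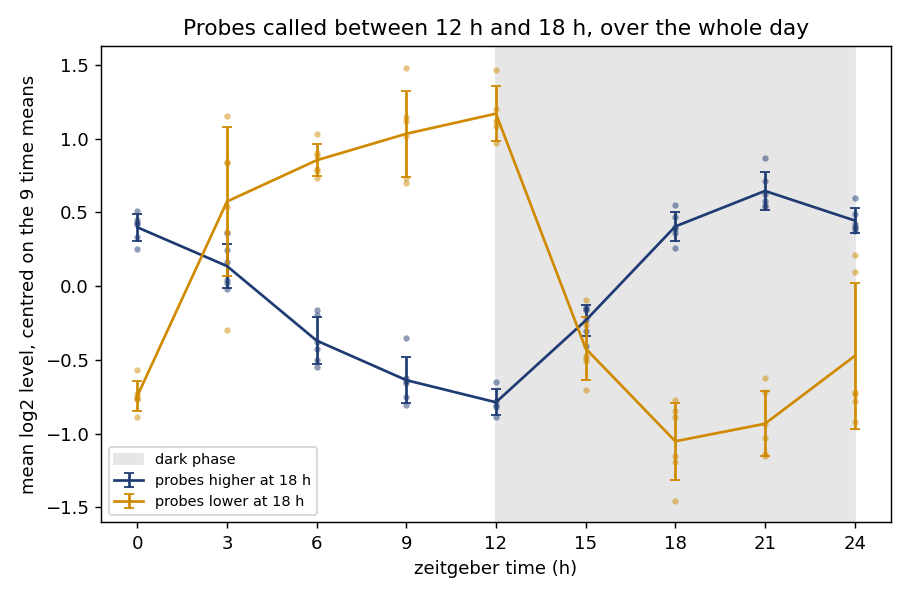
Mean log2 level, centred on the 9 time means (y axis), against zeitgeber time in hours (x axis) of the 152 probes higher (blue) and the 95 lower (orange) at 18 h. Points are larvae, lines join group means, bars are SD over larvae, the dark phase is shaded, and the means cross near 15 h. The 95 include the 14 C3 probes that fell by more than 4 log2 units.

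The change over the first 6 h of dark was set against that over the first 6 h of light, from 0 h to 6 h, which uses other larvae. The light interval had 235 calls (1.69%). Of the probes called in both intervals, all 107 had opposite signs, which is 43.3% of the 247 and 45.5% of the 235. The difference between the 2 changes was called for 672 probes (4.82%), and the change in the dark was the more positive in 3.16% of all probes and the more negative in 1.66%. The 2 intervals start 12 h apart, so a probe with a single even daily wave changes with opposite signs in them. These counts are therefore not a test of dark against light. All 12 named rises were below 0 and all 11 named falls above 0 in the light interval. These clones were chosen by their change in the dark, among clones the study picked from the same larvae, 0 h and 6 h included. Their opposite signs are therefore no independent evidence. The difference of changes of such a clone contains the change it was chosen by. Alpha-crystallin B differed by -2.08 in the light, a difference of changes of 4.79 (SE 0.30, adjusted p = 7.5e-17 by limma). Cyclin-dependent kinase inhibitor 1 differed by 2.97, a difference of changes of -5.14 (SE 0.35, adjusted p = 1.62e-15). Deltex-1 differed by 0.36 in the light (adjusted p = 0.612), and its difference of changes was -2.89 (adjusted p = 7.04e-10). Among clock genes the difference was called for bmal1 (-3.90, adjusted p = 4.65e-06), clock (-2.65, adjusted p = 0.00139) and per3 (3.07, adjusted p = 4.39e-07). Per3 was well above background in no larva of 12 h, so the sizes of its change in the dark and of this difference are uncertain.

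**Figure D5:**
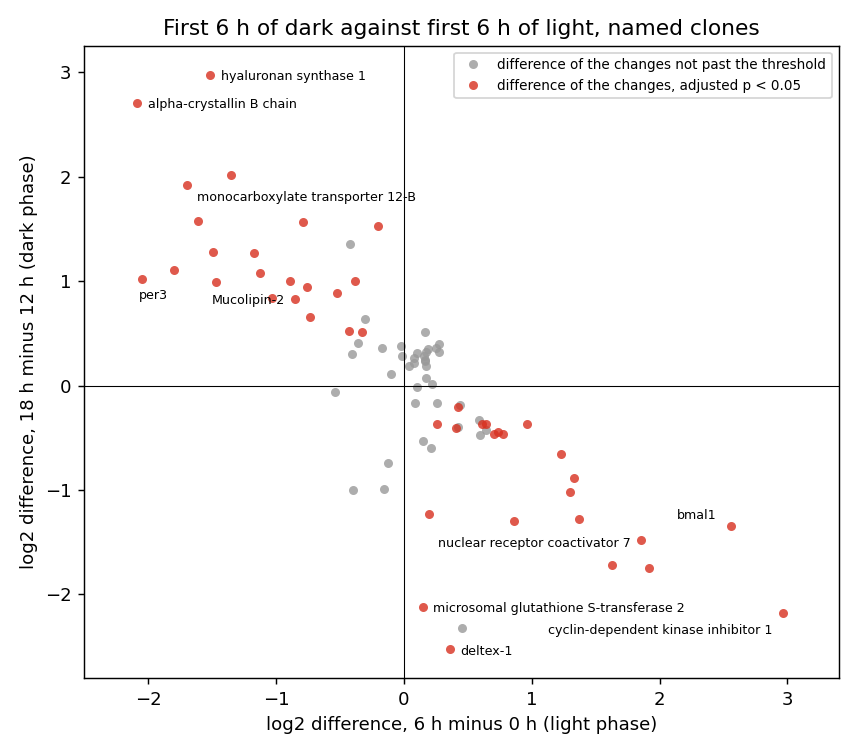
Log2 difference between 18 h and 12 h (y axis) against that between 6 h and 0 h (x axis) for the 83 clones chosen by the naming rules. Red marks the 44 whose difference of the 2 changes had adjusted p under 0.05, against 4.82% of all probes. Some clones were chosen by these changes. Most red points lie in the upper left and lower right, where the 2 changes have opposite signs.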

How the data were processed

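The deposited scanner output of each array holds intensity values in fluorescence units, background-corrected by Agilent Feature Extraction 11.5.1.1 (submitters' processing notes), with flags for outlier and above-background spots. The authors also deposited a table of log2 values shifted by each array's 75th percentile, from which the values computed here differed by a median of 0.00555 (lowest correlation 0.999). Files were read with R 4.3.3 (package data.table, version 1.17.8). Control spots (536 on each array) and flagged outlier spots (301 on the 11 arrays) were dropped. The log2 processed signal less the 75th percentile of the array was averaged over the spots of a probe. No spot was saturated. limma 3.58.1 was fitted on all 53 arrays with 9 groups, which then share 1 estimate of the spread (44 residual degrees of freedom), and p-values were adjusted over 13940 probes.

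Members and gene lists were chosen with earlier results of these data known. Named were the clock and uncoupling lists, up to 15 rises and 15 falls among called clones whose larvae did not overlap and that exceeded background in each larva of the higher time, up to 4 clones per list by p, 2 unnamed rises and 2 unnamed falls, and the 6 clones of smallest p for the difference of changes. Names came from the study's own lists of clones. Where a probe was above background in no larva of 18 h, its fold is a bound. For per3, above background in no larva of 12 h, a bound is given beside the log2 difference.

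On simulated data with 100 probes changed by 1 log2 unit between 12 h and 18 h and 100 by 2, 63% and 91% were recovered with 12 false calls over 13940 probes. The simulated noise was independent between arrays, with no slide or scan batch effect. In the real arrays the random slide block had a correlation of 0.32. Larvae 4 and 5 of 18 h lay in scan batch 2, which held no larva of 12 h. Recovery under such effects was not tested. The number of arrays limits the precision. Alternatives were other background corrections, normalizations, filters, blocks, thresholds and sets of arrays, and the methods' analysis of variance with Tukey comparison. The scanner output used here has no mean signal column, so normexp was run on median signals with an offset of 50.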

Additional observations from a re-analysis of the deposited data

Results flagged for a closer look

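Dixon's test on the larvae of 1 time marked 9 of 174 groups of named clones, and chance marks about 1 in 20. The values given are the gap to the nearest larva over the range of the group. At 12 h, larva 2 was low for Myc-1-like (0.904, level -4.28 against -3.27), larva 1 high for large neutral amino acids transporter 4 (0.899) and larva 3 low for replication factor C subunit 5 (0.73, level -6.52 against -4.82). Larva 6 of 12 h was low for FANCD2 (0.718), high for L-threonine 3-dehydrogenase (0.736) and low for cone PDE6 gamma (0.798, level 2.64 against 4.18). At 18 h, larva 5 was high for ucp1 (0.694, level 3.19 against 2.91), larva 3 low for proteasome subunit 8 (0.766) and larva 6 low for cone PDE6 gamma (0.865, level -4.91 against 2.33).

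Cone PDE6 gamma differed by -2.32 between 18 h and 12 h (adjusted p = 0.0784). Its adjusted p was 0.131 without larva 6 of 18 h and 0.0317 with the slide as a block, and it ran from 0.0181 to 0.571 over 25 alternatives, 8 of which called it, and the lowest came from the collapsed normexp fit.

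The change from 12 h to 18 h differed from the change from 0 h to 6 h, by the limma test of that difference, in the 6 named clones of smallest p. The differences were 4.79 for alpha-crystallin B, -5.14 for cyclin-dependent kinase inhibitor 1, 3.62 for monocarboxylate transporter 12-B, -2.89 for deltex-1, 2.46 for mucolipin-2 and -3.34 for nuclear receptor coactivator 7. Mucolipin-2 was well above background in 1 of 5 larvae of 12 h, so the size of its difference is uncertain. Its change from 12 h to 18 h was 0.03 (adjusted p = 0.983 by limma) after normexp with bright-background spots left out. The call of that change was also lost with the collapsed normexp fit, median signals less background, quantile normalization and the first scan batch alone.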

How the results depend on the processing

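In the order of calls between 12 h and 18 h, rises, falls, calls for the difference of changes, calls from 12 h to 15 h and calls from 15 h to 18 h, the values were 247, 152, 95, 672, 57 and 104. The slide as a fixed block gave 622, 412, 210, 1369, 102 and 489, and as a random block 630, 430, 200, 1238, 96 and 411. A fit of only the arrays compared gave 111 calls, 61 rises and 50 falls, with 22 and 24 in the steps. An adjusted p under 0.01 left 152 calls, 85 rises, 341 for the difference of changes, and 35 and 56 in the steps. The first scan batch alone, chosen after seeing the data, gave 151, 92, 59, 387, 35 and 13. Leaving out 1 larva gave 196 to 378, 110 to 266, 77 to 116, 547 to 834, 40 to 72 and 79 to 151, with the highest call count without larva 6 of 12 h.

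The planned normexp correction gave 134 calls, 68 rises, 239 for the difference of changes, and 25 and 7690 in the steps, and turned per1 to 0.37 and nuclear receptor coactivator 7 to 0.13. Its fit had collapsed on 3 arrays (larvae 1 and 6 of 18 h and larva 4 of 9 h), where the span from the 5th to the 95th percentile was 1.38 to 2.53 log2 units against 4.61 to 6.31 on the others, so these values are not usable. On 5 arrays, 38 spots had a local background more than 20 units above their signal. Without these spots, an alternative added once the data had been seen, normexp gave 128 calls (122 of the 247 among them), 53 rises, 315 for the difference of changes, and 37 and 68 in the steps. Per1 was then -0.41 and nuclear receptor coactivator 7 -0.61, neither called, and replication factor C subunit 5 was -0.055. None of the 25 probes with such a spot at 12 h or 18 h was called in the report.

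The labels do not say what the replicate numbers stand for, and the numbers were not taken as pairs. Of 5 same-numbered pairs of larvae, the deviations of 4 correlated at 0.15 to 0.29 and those of 1 at -0.15, and 3 of 5 larvae of 12 h were closest to their own number. Pairs 1, 2 and 6 (0.22, 0.29 and 0.28) also shared a slide, so number and slide cannot be told apart in them. Pairs 3 and 4 lay on different slides and correlated at 0.15 and -0.15. The replicate block gave 492 calls, 314 rises, 178 falls, 1060 for the difference of changes and 261 from 15 h to 18 h. The methods' analysis of variance with Tukey comparison gave 348 calls. Of 33 called genes and probes named by the rule, 13 were called in every alternative: hyaluronan synthase 1, alpha-crystallin B, uridine phosphorylase 2, monocarboxylate transporter 12-B, deltex-1, cyclin-dependent kinase inhibitor 1, microsomal glutathione S-transferase 2, SLC25A36, ZNRF2 and the 4 probes without a name. Tob1 and kidney mitochondrial carrier protein 1 lost their calls under the collapsed normexp fit alone.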

Other observations

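A further 5 named clones, picked with their values in view, were called between 12 h and 18 h. The C14orf118 homolog was 1.61 higher at 18 h (adjusted p = 0.016 by limma), angiopoietin-related protein 7, a secreted protein, 0.91 higher (adjusted p = 0.00034) and 4E-BP3-like, of a family that holds back cap-dependent translation, 0.83 higher (adjusted p = 0.0017). Cytosolic sulfotransferase 3 fell by 0.81 (adjusted p = 0.0067) and COQ10B, a coenzyme Q binding protein, by 0.73 (adjusted p = 0.024).

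Probe codes that begin with C3 made up 50.5% of the falls (48 of 95), 8.55% of the rises (13 of 152) and 15.1% of all probes. Keratin type II, a skin gene, had levels of 1.24 to 2.05 at 12 h and of -0.02 to 1.77 at 18 h (adjusted p = 0.0659), and with the slide as a block its adjusted p was 0.0049.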
